A study of Mus musculus with 6 samples.

Results

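The genes of the matrix metalloproteases (MMPs), the ADAM and ADAMTS proteases and their TIMP inhibitors were examined in mouse 3T3 fibroblasts with and without induced human PARG (hPARG), the enzyme that removes poly(ADP-ribose) from proteins. Members were taken by name, as every gene called Mmp, Adam, Adamts, Adamtsl or Timp followed by its number. These families were chosen with earlier results of these data known. The name rule found 84 of the 41819 genes of the table, namely 23 MMP, 33 ADAM, 19 ADAMTS, 5 ADAMTS-like and 4 TIMP genes.

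Both groups came from 1 puromycin-selected clone of 3T3 cells carrying a lentiviral cassette of hPARG and the fluorescent protein mClover3 behind the TetOne doxycycline-inducible promoter. The 3 hPARG dishes received 500 ng/ml doxycycline for 72 h and the 3 control dishes received none. The labels describe wells of a 6-well plate where the methods describe 10 cm dishes, and "dish" is used throughout. Because no library of doxycycline-treated cells without the cassette was analysed here, hPARG and doxycycline, itself a known inhibitor of MMP enzymes at the protein level, cannot be told apart. The dishes share 1 clone, so p-values measure the spread between these dishes only, and the induced human transcript was not analysed here.

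MMPs are secreted or membrane-bound zinc proteases that cut collagens, proteoglycans and other matrix proteins, and they are made as inactive proforms. ADAMs are membrane proteases that release the outer parts of receptors, growth factors and cytokines, whereas ADAMTS enzymes are secreted and cut aggrecan, versican and procollagens. TIMPs block the active site of these enzymes, and fibroblasts are known as a main source of TIMPs and MMPs. In fibroblasts, interleukin-1 and tumour necrosis factor are known to switch on Mmp3 and Mmp13 through AP-1 and NF-kappaB factors.

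Each dish held between 21619908 and 25263818 counts, and 3 counts corresponded to between 0.117 and 0.141 CPM (counts scaled to library size). All 10 fibroblast markers passed the count filter, from Vim at a mean of 1550 RPKM (reads scaled to gene length and library size) down to Pdgfrb at 0.685 RPKM. The summed level of the 10 was 3230 to 3610 RPKM in control and 3430 to 3860 RPKM in hPARG dishes. The matrix genes Dcn (2 to 15 counts per dish) and Lum (0 to 4), kept in another list, failed the filter. None of the 10 markers was called by the rule used below. At an unadjusted p under 0.05 in edgeR's quasi-likelihood test there were 4 of the 10, against 3.95% of all tested genes. The median log2 fold change of the 10 was 0.23, and its part in the results was not tested. Of 17 markers of other cell types only 3 passed, namely Cd68, Kdr and Des. All 17 together summed to 2.34 to 2.9 RPKM in control and 2.72 to 2.86 RPKM in hPARG dishes. Only the macrophage marker Adgre1 and the cartilage marker Acan were at 0. Another macrophage marker, Cd68, had 11 to 23 counts per dish, and another cartilage marker, Col2a1, had 0 to 10. In such bulk samples, fewer cells of a type and less RNA per cell cannot be told apart. Both dishes numbered 2 stood apart on the first principal component, which held 42% of the variance and placed them at 21.6 and 24.7. Control dish 3 lay at the other end at -27.4, and the remaining dishes lay between -10.4 and -3.17. Because of the dishes numbered 2, the log2 fold changes of the 22 tested members named below are also given without both of them.

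Of the 84 genes, 22 had 0 counts in every dish, another 32 had some counts but failed the count filter with at most 45 counts over all 6 dishes, and 30 (35.7%) were tested, against 27.5% of all genes. The tested genes were 6 MMPs, 11 ADAMs, 8 ADAMTS, 2 ADAMTS-like genes and 3 TIMPs. Levels spanned from Timp2 and Timp1 at over 100 RPKM down to traces, with 19 members above 1 RPKM and 7 above 10 RPKM.

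**Figure D1:**
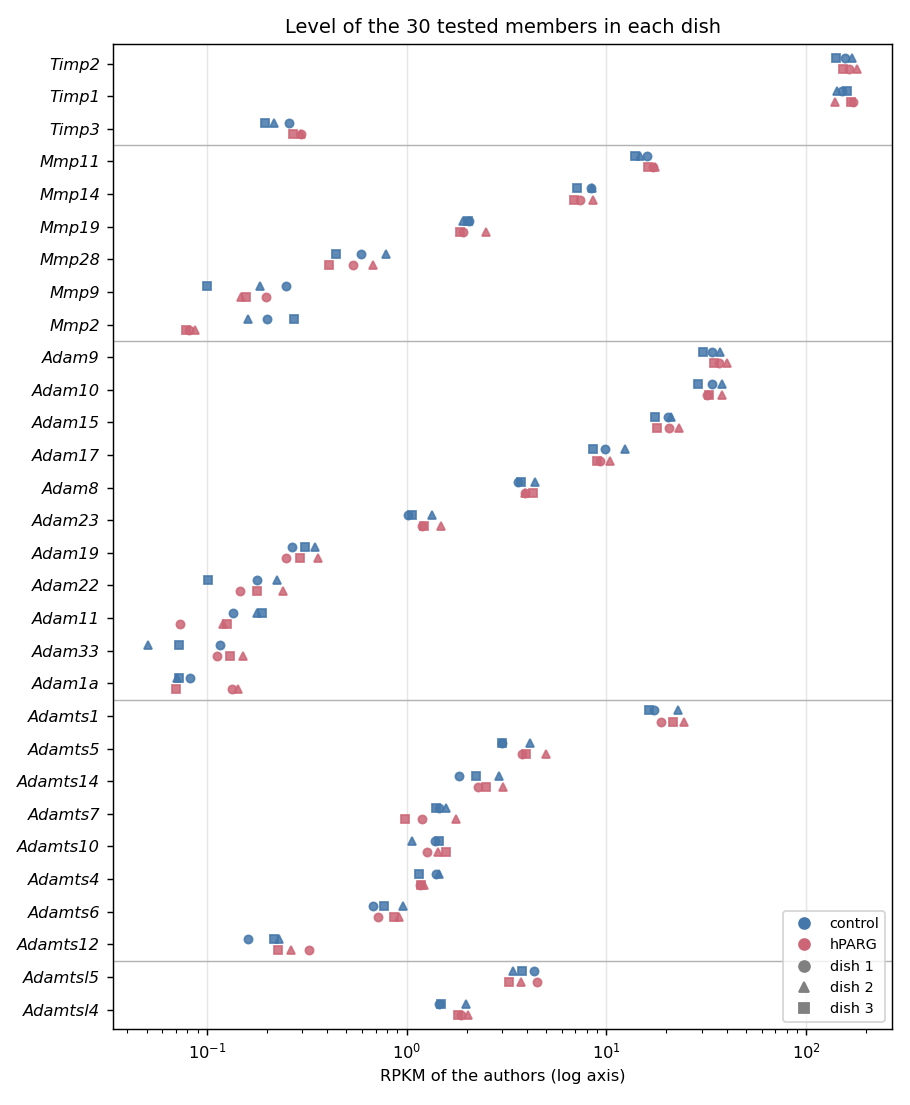
Level of each of the 30 tested members in each dish, as RPKM on a log axis, with control dishes in blue, hPARG dishes in red and a symbol for each dish number. Timp2 and Timp1 stand at means of 161 and 156 RPKM, and in most genes the points of both groups overlap.

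No member differed between hPARG and control cells at a false discovery rate (FDR) under 0.05 and more than 2-fold by edgeR's quasi-likelihood test with Benjamini-Hochberg adjustment over 11509 genes, and the members' FDR lay between 0.894 and 0.999. The same rule called 10 genes, 0.0869% of those tested. At an unadjusted p under 0.05, 2 members (6.67%) were found, against 3.95% of all tested genes. DESeq2 and edgeR's likelihood ratio test also called 0 members, where they called 0.130% and 0.261% of their genes.

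The fold change was above 0 in 21 members and below 0 in 9, with a median log2 fold change of 0.10 against 0.00 over all tested genes. For 25 of the 30 members (83.3%) the 95% interval of the difference lay within 2-fold in either direction, and over all tested genes 90.8% did. Thus for these members a change of more than 2-fold lay outside the interval, whereas the intervals of the remaining 5 reached beyond 2-fold. Among these 5 was Mmp2, whose log2 fold change of -1.31 was itself beyond 2-fold. In CPM scaled with TMM factors, the groups did not overlap in 4 higher members (13.3%, against 3.61% of all tested genes), which were Adam9, Mmp11, Timp3 and Adamts12. They did not overlap either in 2 lower members, Mmp2 and Adam11 (6.67%, against 6.00%). In RPKM the groups of Adam9 and Adamts12 did overlap.

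**Figure D2:**
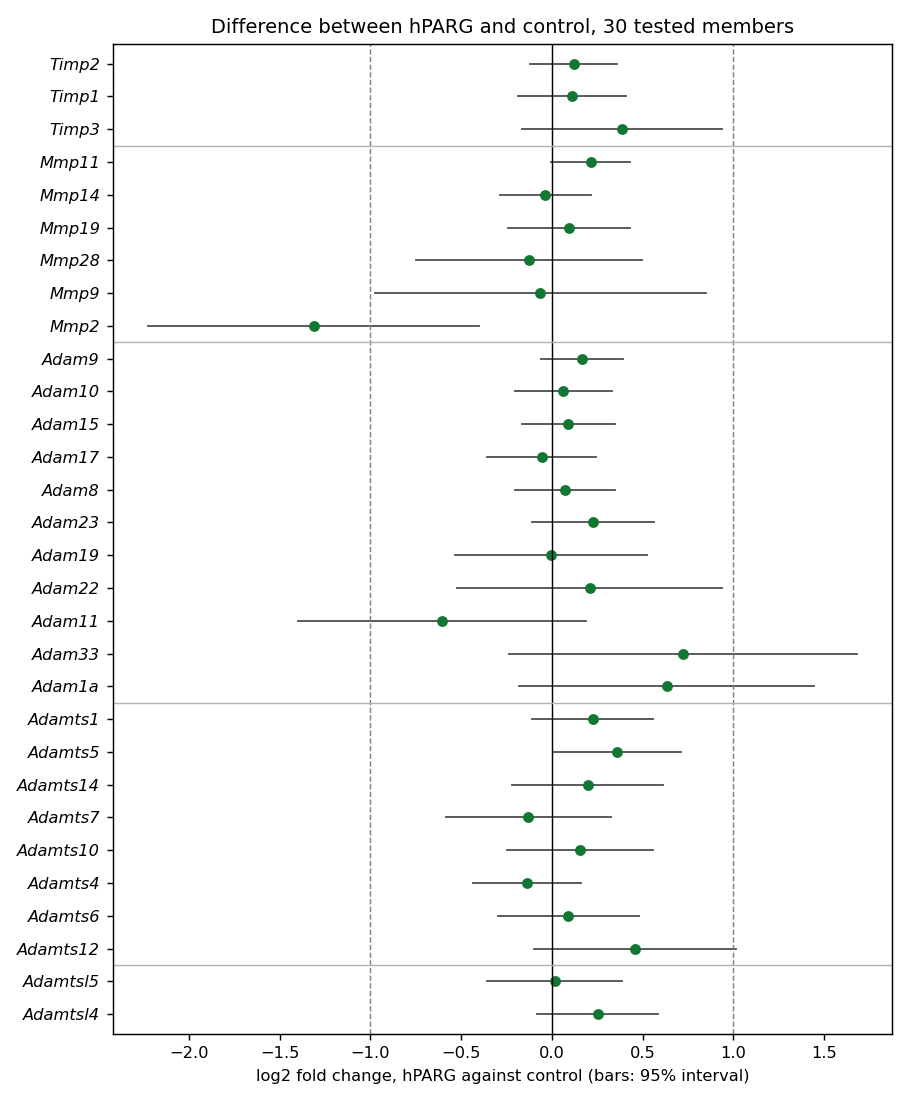
Log2 fold change of hPARG against control for the 30 tested members, grouped by family, with bars for the 95% interval and dashed lines at 2-fold. The points run from -1.31 for Mmp2 to 0.72 for Adam33, and the bars of Mmp2 and Adamts5 leave out 0 before adjustment.

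Among the inhibitors, Timp2 and Timp1 were the most abundant of all members and made up 99.9% of the TIMP sum in every dish. Timp2 (ENSMUSG00000017466, GRCm38 chr11:118301069-118355740) inhibits MMPs and also helps Mmp14 to activate pro-Mmp2 at the cell surface. Timp1 (ENSMUSG00000001131, chrX:20870166-20874735) is an inducible inhibitor that lies within the Syn1 gene on the opposite strand without sharing exon bases. The RefSeq promoter windows of both are shown because these genes carry most of the family's RNA. They span 250 bases before to 50 after the start in GRCm38.p6, read in the direction of the gene, and capitals mark CG dinucleotides, of which Timp1 has 8 (chrX:20869916-20870215, plus strand) and Timp2 has 25 (chr11:118355362-118355661, minus strand).
Timp1: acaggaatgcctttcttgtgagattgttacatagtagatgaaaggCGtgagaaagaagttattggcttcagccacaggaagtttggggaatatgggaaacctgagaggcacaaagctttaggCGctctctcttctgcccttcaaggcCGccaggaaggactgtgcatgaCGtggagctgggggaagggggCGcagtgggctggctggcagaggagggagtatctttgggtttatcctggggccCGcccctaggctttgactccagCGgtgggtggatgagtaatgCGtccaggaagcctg
Timp2: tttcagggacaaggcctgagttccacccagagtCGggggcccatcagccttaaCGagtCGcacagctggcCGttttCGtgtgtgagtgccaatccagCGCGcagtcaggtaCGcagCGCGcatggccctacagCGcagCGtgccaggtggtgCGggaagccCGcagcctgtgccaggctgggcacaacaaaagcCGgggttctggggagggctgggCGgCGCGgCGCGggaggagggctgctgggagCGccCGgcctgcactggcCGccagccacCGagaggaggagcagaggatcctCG

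Timp2 stood at 156, 170 and 141 RPKM in control dishes 1 to 3 and at 164, 180 and 153 RPKM in hPARG dishes 1 to 3. Timp1 stood at 151, 143 and 161 RPKM in control and at 172, 140 and 168 RPKM in hPARG dishes. The groups overlapped for both genes, with log2 fold changes of 0.12 (SE 0.104) and 0.11 (SE 0.129). The 2 dishes numbered 2 held the highest Timp2 and the lowest Timp1 of their group, and without both dishes the log2 fold changes were 0.13 and 0.16.

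Timp3, which binds the matrix and inhibits ADAMs and ADAMTS enzymes as well as MMPs, was a trace transcript with 35, 26 and 23 counts in control and 35, 38 and 33 in hPARG dishes. Scaled to depth, it stood at 1.19 ± 0.154 CPM in control and 1.56 ± 0.0455 CPM in hPARG dishes (SD, n = 3). The groups did not overlap on that scale, but the log2 fold change of 0.39 (SE 0.238) did not pass the test. Of its exon bases, 21.3% are shared with Syn3 on the other strand, and without strand information these reads cannot be told apart. Timp4 was below the filter with 1, 0 and 4 counts in control and 2, 3 and 6 in hPARG dishes.

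The balance of inhibitors to MMPs was compared as the sum of all TIMP over the sum of all MMP levels in each dish. TIMP levels summed to 308, 313 and 302 RPKM in control and to 336, 320 and 322 RPKM in hPARG dishes. MMP levels summed to 27.7, 26.5 and 24.4 RPKM in control and to 27.4, 29.8 and 25.7 RPKM in hPARG dishes. Most of the MMP sum was Mmp11, at means of 14.9 RPKM in control and 16.9 RPKM in hPARG dishes. Without Mmp11 the MMP sum was 11.3 ± 0.712 RPKM in control and 10.7 ± 1.42 RPKM in hPARG dishes (SD, n = 3). In RPKM all 3 hPARG dishes had a higher TIMP sum than any control dish, while the MMP sums overlapped. Timp2 and Timp1, which made up nearly all of the TIMP sum, each overlapped between the groups. In CPM, 3.61% of all tested genes were higher in hPARG dishes without overlap. With 3 dishes against 3, a two-sided exact permutation test cannot go below 0.1. The ratio was 11.8 ± 0.634 in control and 11.9 ± 0.961 in hPARG dishes (SD, n = 3), a difference smaller than either spread.

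Among the MMPs, Mmp11, Mmp14 and Mmp19 were the 3 above 1 RPKM. Mmp11 (ENSMUSG00000000901, chr10:75923222-75936496), or stromelysin-3, is a stromal enzyme activated inside the cell by furin. It stood at 16.0, 14.8 and 13.9 RPKM in control and at 17.1, 17.5 and 16.1 RPKM in hPARG dishes. Scaled with TMM factors, 42.7, 38.5 and 38.8 CPM in control compared with 46.9, 46.8 and 45.5 CPM in hPARG dishes, and each hPARG dish lay above each control dish. The log2 fold change of 0.21 (SE 0.0937, unadjusted p = 0.0524, FDR = 0.999 in edgeR's test) did not pass. It shares 5.58% of its exon bases with Chchd10.

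Mmp14 (ENSMUSG00000000957, chr14:54431612-54445364), the membrane-type collagenase of fibroblasts, stood at 8.39, 8.49 and 7.16 RPKM in control and at 7.42, 8.62 and 6.89 RPKM in hPARG dishes. The groups overlapped, and the log2 fold change of -0.04 had a 95% interval of -0.29 to 0.22. Mmp19 averaged 2.05 RPKM with a log2 fold change of 0.09, and 28.3% of its exon bases are shared with neighbours. Among the other membrane-type genes, Mmp15, Mmp16, Mmp17, Mmp24 and Mmp25 all stayed below the filter, with at most 22 counts over the 6 dishes.

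The gelatinases, which cut denatured and basement membrane collagen, were close to the detection limit. Mmp2 (ENSMUSG00000031740, chr8:92827291-92853420), gelatinase A, had 17, 12 and 20 counts in control and 6, 7 and 6 counts in hPARG dishes, or 0.663, 0.516 and 0.943 CPM against 0.275, 0.288 and 0.275 CPM. Each hPARG dish lay below each control dish, at 0.402-fold of the control level (log2 fold change -1.31, SE 0.393, 95% interval -2.22 to -0.40). In edgeR's quasi-likelihood test the unadjusted p was 0.0106 and the FDR 0.894, so the difference did not pass, and it rests on 49 counts in all control and 19 in all hPARG dishes. Without both dishes numbered 2 the log2 fold change was -1.51. Mmp9, gelatinase B, had 23, 15 and 8 counts in control and 16, 13 and 13 in hPARG dishes, which overlapped.

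Mmp3 and Mmp13, the MMPs that inflammatory cytokines are known to induce in fibroblasts, were barely present in either group. Mmp3 (ENSMUSG00000043613, chr9:7445822-7455975), stromelysin-1, had 3, 2 and 6 counts in control dishes and 0 in every hPARG dish. Pooled over the group, 0.157 CPM in control compared with fewer than the 0.0442 CPM that 3 counts over the 3 hPARG dishes would give, so against that floor, with the 11 control counts taken as exact, Mmp3 was at least 3.55-fold lower. Control dishes 1 and 2 were themselves at or under 3 counts. Without control dish 3, which held 6 of the 11 counts, that bound was 2.31-fold. Mmp3 failed the count filter, and in a fit without that filter its unadjusted p was 0.0114 and its FDR 0.998. Mmp13 (ENSMUSG00000050578, chr9:7272514-7283331), collagenase-3, had 0, 0 and 3 counts in control and 0 in every hPARG dish. Both groups of Mmp13 were at or under 3 counts, so no fold is given and a difference was not detectable at this depth.

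The promoters of both genes are shown because each window holds the AP-1 motif TGAGTCA on either strand, and capitals mark this motif and the CG dinucleotides. Mmp13 holds it on the minus strand, where the printed letters are its reverse complement. In Mmp3 (RefSeq, GRCm38.p6, chr9:7445572-7445871, plus strand) the motif begins 46 bases before the start, and in Mmp13 (chr9:7272264-7272563, plus strand) it begins 35 bases before it.
Mmp3: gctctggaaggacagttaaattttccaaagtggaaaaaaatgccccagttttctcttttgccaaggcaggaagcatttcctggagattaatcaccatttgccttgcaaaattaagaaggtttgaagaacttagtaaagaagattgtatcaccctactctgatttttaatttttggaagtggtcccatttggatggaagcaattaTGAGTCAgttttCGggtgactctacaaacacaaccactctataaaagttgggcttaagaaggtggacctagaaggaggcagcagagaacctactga
Mmp13: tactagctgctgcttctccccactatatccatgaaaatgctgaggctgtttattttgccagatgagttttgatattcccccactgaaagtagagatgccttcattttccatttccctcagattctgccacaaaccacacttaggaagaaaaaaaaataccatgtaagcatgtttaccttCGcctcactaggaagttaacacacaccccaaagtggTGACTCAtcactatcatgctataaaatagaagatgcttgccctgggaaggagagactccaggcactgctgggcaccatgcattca

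Mmp3 and Mmp13 belong to a cluster of 10 MMP genes within 427 kb of chromosome 9 (GRCm38 chr9:7272514-7699585), which also holds Mmp12, Mmp1b, Mmp1a, Mmp10, Mmp8, Mmp27, Mmp20 and Mmp7. The cluster had 5, 5 and 24 counts in control and 6, 0 and 0 in hPARG dishes, or 34 against 6 counts in all. Most of the difference lay in control dish 3, without which 10 control counts remained, and which held all 11 control counts of Mmp12, the macrophage elastase. The nearest genes on either side that passed the count filter, Dcun1d5 and Tmem123, held 13319 and 18017 counts over the 6 dishes. Only genes that passed were considered, so these counts do not describe the genes directly beside the cluster. All 10 genes had a promoter in the RefSeq table, and 6 of the 10 windows (60.0%) held the AP-1 motif on either strand, against 5.17% of all 27025 windows. This is a match of letters and not a site of binding. Over all members such a share is void, because the table holds a promoter for only 53 of the 84 (63.1%).

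**Figure D3:**
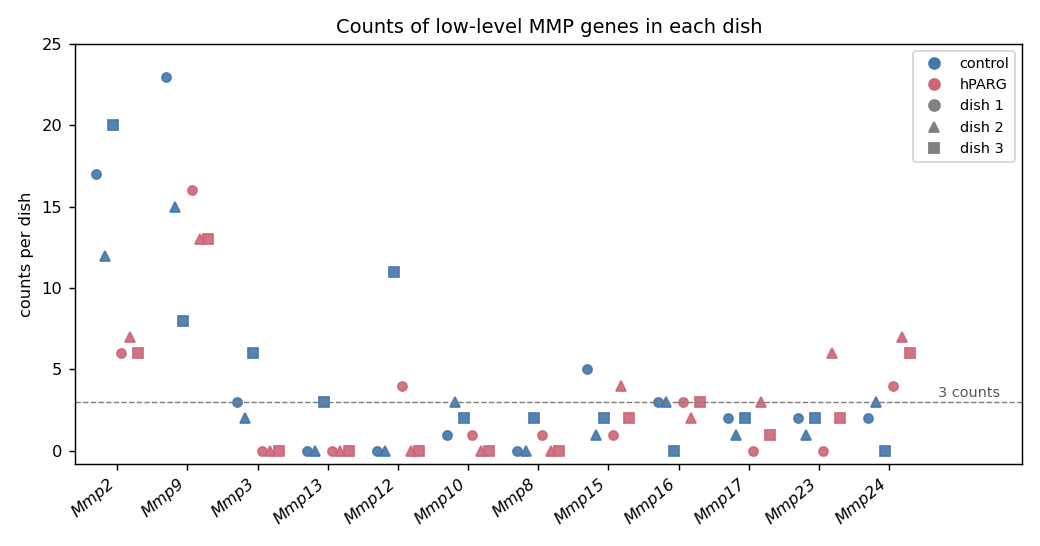
Counts of low-level MMP genes in each dish, with control dishes in blue, hPARG dishes in red, a symbol for each dish number and a dashed line at 3 counts. Mmp2 lies at 12 to 20 counts in control and 6 to 7 in hPARG dishes, and Mmp3 and Mmp13 are at 0 in all hPARG dishes.

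Other genes that the same cytokines drive ranged from traces to high levels in these cells. Of 18 cytokine-driven fibroblast genes 15 were tested, while Il6 (3 to 11 counts per dish), Csf3 (0 to 1) and Icam1 (0 to 3) failed the count filter. Of the 15, 8 fell at an FDR under 0.05 and more than 2-fold in edgeR's test. By the same rule 10 of all 11509 tested genes (0.0869%) were called. The 8 were Ccl20, Cxcl1, Cxcl5, Cxcl10, Lcn2, Saa3, C3 and Nfkbia, and the median log2 fold change over the 15 was -1.66. DESeq2 and the likelihood ratio test each called 11 of the list. Most of the list, and all 8 called genes, had been reported as lower by the study on these same dishes, so their count is not independent evidence of the direction. The tested genes that the study did not report were Ptgs2, Lif and Vcam1. Their log2 fold changes were -0.19, -0.61 and -0.44, and none of them was called. Among the called genes, the neutrophil chemokine Cxcl5 had 4283, 4164 and 4460 counts in control and 715, 660 and 765 counts in hPARG dishes (log2 fold change -2.55, FDR = 0.00153). The summed level of the 18 genes was 591 to 718 RPKM in control and 174 to 219 RPKM in hPARG dishes.

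Of the ADAMs, the widely expressed sheddases led. Adam9 (ENSMUSG00000031555, chr8:24949611-25016927), Adam10 and Adam15 were above 10 RPKM, at means of 35.4, 33.8 and 20.1 RPKM. Adam17, the enzyme that releases tumour necrosis factor, followed at 9.95 RPKM and Adam8 at 3.97 RPKM. Adam9 stood at 150, 159 and 140 CPM in control and at 165, 178 and 161 CPM in hPARG dishes, and each hPARG dish lay above each control dish. In RPKM the groups overlapped, at 34.0, 37.0 and 30.4 in control and 36.5, 40.2 and 34.6 in hPARG dishes. The log2 fold change of 0.17 (SE 0.0975, FDR = 0.999 in edgeR's test) did not pass.

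Adam10, the sheddase of Notch and cadherins, stood at 33.7, 38.0 and 28.7 RPKM in control and at 31.9, 38.0 and 32.5 RPKM in hPARG dishes. Adam17 stood at 9.8, 12.4 and 8.63 RPKM in control and at 9.33, 10.5 and 9.02 RPKM in hPARG dishes. Both overlapped, with log2 fold changes of 0.06 (95% interval -0.21 to 0.33) and -0.06 (-0.36 to 0.24), and that of Adam17 turned to 0.03 without both dishes numbered 2. Adam15 had a log2 fold change of 0.09, and it shares 20.6% of its exon bases with a neighbouring gene.

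Among the ADAMs without protease activity, Adam23 averaged 1.22 RPKM with a log2 fold change of 0.23. Adam11 had 19, 22 and 23 counts in control and 9, 16 and 16 in hPARG dishes. The Adam11 groups did not overlap after scaling, but the log2 fold change of -0.60 (SE 0.342) did not pass. Adam1a, with a log2 fold change of 0.63, shares 63.7% of its exon bases with other genes, so its reads are uncertain. Another 15 ADAMs had 0 counts in every dish, among them the sperm surface genes Adam2 and Adam3.

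Of the ADAMTS genes, the proteoglycan-cutting Adamts1 and Adamts5 were the most abundant by CPM, and they are neighbours on chromosome 16. Adamts1 (ENSMUSG00000022893, chr16:85793827-85803113) stood at 95.3, 122 and 94.2 CPM in control and at 105, 135 and 124 CPM in hPARG dishes. The groups overlapped, at 104 ± 15.9 and 122 ± 15.0 CPM (SD, n = 3), with a log2 fold change of 0.23 (SE 0.144). Per gene length, Adamts1 averaged 20.2 RPKM and Adamts5 3.82 RPKM.

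Adamts5 (ENSMUSG00000022894, chr16:85856173-85901828), the main aggrecanase of mouse cartilage, stood at 34.7, 46.8 and 36.3 CPM in control and at 45.0, 57.8 and 48.4 CPM in hPARG dishes. Control dish 2 lay between hPARG dishes 1 and 3, so the groups overlapped. The log2 fold change was 0.36 (SE 0.152, 95% interval 0.01 to 0.71), and in edgeR's test the unadjusted p was 0.0461 and the FDR 0.999. Without both dishes numbered 2 it was 0.40, with an FDR of 0.183 that did not pass either. The aggrecan gene Acan itself was at 0 in every dish.

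Adamts12 had 38, 48 and 44 counts in control and 67, 59 and 48 in hPARG dishes. Its groups did not overlap in CPM but did in RPKM, and its log2 fold change of 0.46 (SE 0.240) did not pass. Adamts14, a procollagen N-proteinase, averaged 2.47 RPKM with a log2 fold change of 0.20, and Adamts7 averaged 1.4 RPKM with one of -0.13. Of the ADAMTS-like proteins, which keep the ADAMTS side domains without a protease, Adamtsl5 averaged 3.85 RPKM with a log2 fold change of 0.02. Summed levels were 29.8 ± 4.77 RPKM in control and 33.5 ± 4.37 RPKM in hPARG dishes for ADAMTS, and 103 ± 12.1 and 108 ± 9.43 RPKM for ADAMs (SD, n = 3). Both differences were smaller than the spread between dishes.

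The spread within a group had a common pattern in the dishes numbered 2. Control dish 2 lay above its group mean in 21 of the 30 tested members (70.0%, against 50.5% of all tested genes) and hPARG dish 2 in 24 (80.0%, against 52.3%). Over the 30 genes this deviation went with exon length (Pearson's r = 0.357 and 0.467, Spearman's rho = 0.285 and 0.334), and over all tested genes r was 0.544 and 0.537. These correlations run across genes of the same library, which are not independent replicates. Adamts5, with long exons, deviated by 0.26 and 0.20 on the log2 scale, and the short Timp1 by -0.13 and -0.22. Other long members did not share this pattern, as Adamts12 deviated by 0.12 and -0.06 and Adamts10 by -0.30 and -0.02. The part of this pattern in the differences between groups was not tested.

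Without both dishes numbered 2, the log2 fold changes of the other named members were as follows. They were 0.35 for Timp3, 0.19 for Mmp11, -0.09 for Mmp14, -0.08 for Mmp19 and 0.04 for Mmp9. Among the ADAMs they were 0.18 for Adam9, 0.08 for Adam10, 0.06 for Adam15, 0.18 for Adam8, 0.25 for Adam23, -0.65 for Adam11 and 0.41 for Adam1a. Among the ADAMTS and ADAMTS-like genes they were 0.28 for Adamts1, 0.26 for Adamts14, -0.35 for Adamts7, 0.58 for Adamts12 and -0.05 for Adamtsl5. Thus Mmp19, Mmp9 and Adamtsl5 changed sign, while none of these members was called.

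**Figure D4:**
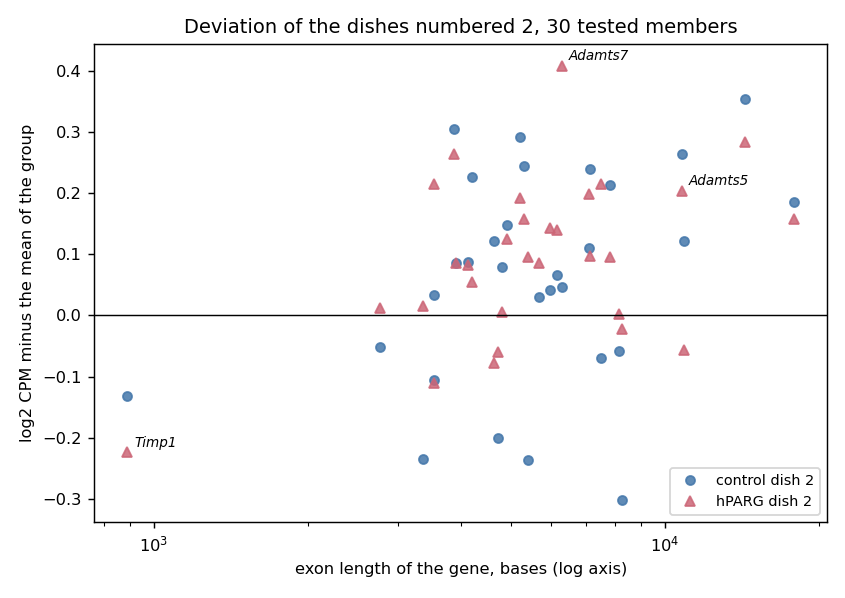
Deviation of control dish 2 (blue) and hPARG dish 2 (red) from the mean of their group, in log2 CPM, against exon length in bases on a log axis, with a point for each of the 30 tested members. Timp1, the shortest, lies at -0.13 and -0.22, and 21 and 24 points lie above 0.

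The genes that activate these proteases or work beside them were read in the same fit, and none of the 7 tested genes of the plasminogen system, the 3 proprotein convertases, the 8 other inhibitors and partners, the 6 iRhoms and tetraspanins or the 4 astacin and cathepsin proteases was called by edgeR's quasi-likelihood test, nor by DESeq2 or the likelihood ratio test. At an unadjusted p under 0.05 in edgeR's quasi-likelihood test there were 2 among these 5 groups, against 3.95% of all tested genes. In the plasminogen system, whose plasmin activates pro-MMPs, the median log2 fold change was 0.18 with 6 of 7 genes above 0. Of the other inhibitors and partners, the procollagen C-proteinase enhancer Pcolce and the MMP inducer Bsg (basigin) were highest at means of 269 and 209 RPKM, with log2 fold changes of 0.05 and 0.06. The medians were 0.02 for the convertases, 0.16 for the inhibitors and partners, 0.02 for the iRhoms and tetraspanins and -0.12 for the astacin and cathepsin proteases.

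On the substrate side, 0 of 8 tested matrix genes and 0 of 12 tested sheddase substrates were called, with median log2 fold changes of 0.32 and 0.03. The other tools called 0 as well. In edgeR's quasi-likelihood test, 2 matrix genes and 1 sheddase substrate had an unadjusted p under 0.05, against 3.95% of all tested genes. These 2 matrix genes, Col1a1 and Col3a1, are also among the 4 fibroblast markers with such a p. All 8 matrix genes had a fold change above 0. Of the 12 AP-1, ETS and related factors, which can bind MMP promoters, 0 were called by any of the tools. Their median log2 fold change was -0.16, with 8 below 0. At an unadjusted p under 0.05 in edgeR's quasi-likelihood test there were 3 of the 12, against 3.95% of all tested genes. These 3 went both ways, with log2 fold changes of -0.51 for Cebpb, -0.33 for Fosl1 and 0.90 for Fos. The highest of them were Jund at 165 RPKM and Cebpb at 102 RPKM, with Jund at a log2 fold change of -0.08, and Cebpb had the smallest FDR of these 3, 0.766 in edgeR's test.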

How the data were processed

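Poly(A) RNA of 6 dishes was sequenced as 150-base paired reads. The authors mapped the reads to GRCm38 with Ensembl release 96 in CLC Genomics Workbench 12.0 (mismatch cost 2, insertion and deletion cost 3, length and similarity fractions 0.8, up to 10 hits per read), and whether strand was used is not given in the sources used here. The authors deposited counts per gene without normalization, which were tested here. The authors also deposited RPKM values, which divide by gene length and library size and were used to compare levels between genes. Their TPM and CPM columns and the columns of their own comparison (fold changes and p-values) were not used.

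Counts were tested with edgeR 4.0.16 in R 4.3.3 (filterByExpr with a minimum count of 10, TMM, quasi-likelihood test, Benjamini-Hochberg adjustment over all 11509 tested genes). Genes were called at an FDR under 0.05 and more than 2-fold. CPM values use TMM factors. The script was tested on simulated data. DESeq2 1.42.0, other scalings and filters, and leaving out dishes were alternatives. Exon lengths and overlaps came from GENCODE M21, and promoters from the RefSeq table. The intervals of the log2 fold changes came from the same edgeR fit. They cover counting error and the spread between these dishes, and nothing beyond these dishes.

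The members and the gene lists were chosen with earlier results of these data known. Genes named are every TIMP, Mmp3 and Mmp13, the 12 members with the highest mean RPKM, the 6 with the smallest unadjusted p, members whose groups did not overlap, examples of each role, and of the other lists the called genes and the 2 highest inhibitors and transcription factors. Adam33, Adamts10, Mmp12, Fos, Fosl1, Il6, Csf3, Icam1, the nearest tested genes beside the chromosome 9 cluster and the genes named for their 0 or trace counts were added after their values were seen. The same holds for Cd68, Kdr, Des, Col2a1, Col3a1, Pdgfrb, Dcn and Lum. Some items are not reported here.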

Additional observations from a re-analysis of the deposited data

How the results depend on the processing

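The count of members called stayed at 0 under every alternative run, and their median log2 fold change stayed between 0.05 and 0.14. Over all genes 10 were called, and 16 without the count filter, 22 with DESeq2, 30 with the likelihood ratio test, 19 without both dishes numbered 2, and 3 to 13 when leaving out each dish in turn (3 without hPARG dish 1, 5 without hPARG dish 3). The number of members whose groups did not overlap was 6 (20.0%, against 9.62% of all genes). Scaled by library size alone it was 5 (16.7%, against 10.2%). It was 16 without both dishes numbered 2 (51.6%, against 35.4%) and 7 to 12 when leaving out each dish, with 12 without control dish 2 (38.7%, against 23.7%) and 10 without hPARG dish 3 (32.3%, against 14.7%). Without both dishes numbered 2, the log2 fold change turned to 0.026 in Adam17, -0.045 in Adamtsl5, -0.081 in Mmp19 and 0.041 in Mmp9, and scaling by library size alone turned Adamtsl5 to -0.011. Leaving out each dish gave -0.014 to 0.139 for Adam10, -0.144 to 0.074 for Adam17, -0.112 to 0.016 for Mmp14, -0.112 to 0.113 for Adamtsl5, -0.032 to 0.150 for Mmp19, -0.381 to 0.024 for Adamts7 and -0.319 to 0.274 for Mmp9, and the cause was not tested. The same gave 0.047 to 0.213 for Timp1, 0.075 to 0.165 for Timp2, 0.018 to 0.162 for Adam15, 0.006 to 0.139 for Adam8, 0.138 to 0.334 for Adam23, -0.765 to -0.401 for Adam11, 0.144 to 0.360 for Adamts1 and 0.055 to 0.363 for Adamts14, which moved by over 1.5 times without turning. Of 305 values for 22 named members, 289 kept their direction, and 15 members kept it throughout.

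The samples share only a dish number: deviations from the group means correlated at 0.0963, 0.61 and 0.168 for the 3 numbers. Between different numbers these correlations ran from -0.441 to 0.335. Only number 2 lay above that range, so the numbers were not taken as pairs. A replicate block on the number called 23 genes and 0 members at more than 2-fold, and 330 genes at any fold against 10 without it. The block lowered edgeR's common coefficient of variation between dishes from 0.148 to 0.0615. With it, 6 of the 30 members and 2060 of the 11509 genes had an unadjusted p under 0.05 in edgeR's quasi-likelihood test. Without it there were 2 and 455. At any fold, edgeR's FDR of Adamts5 was 0.0103 with the block (log2 fold change 0.36). Mmp3 and Mmp13 failed the filter and so have no value to set the alternatives against. Depth limits Mmp3, Mmp13 and the rest of the chromosome 9 cluster, where 3 counts equal 0.117 CPM or more.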

Other observations

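Among members below the count filter, Mmp24, a membrane-type MMP best known from neurons, had 2, 3 and 0 counts in control and 4, 7 and 6 counts in hPARG dishes. These groups did not overlap. Without the filter this held in either direction for 9 of 62 members (14.5%), against 8.33% of all genes. Mmp24 shares 13.6% of its exon bases with BC029722. Adamts2, a procollagen N-proteinase, had 7, 7 and 13 counts in control and 10, 6 and 2 in hPARG dishes, and these groups overlapped. Both genes were singled out after their values were seen, and neither difference was tested in the main comparison. In the fit without the count filter, 0 members were called.

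Plau, the urokinase that activates plasminogen, had a log2 fold change of 0.44 (SE 0.141), and the FDR of 0.965 in edgeR's quasi-likelihood test did not pass. Collagen gene Col1a1 stood at 43.8 ± 12.9 RPKM in control and 63.9 ± 14.8 RPKM in hPARG dishes (SD, n = 3), with the highest count of each group in the dish numbered 2. Both of these genes were also chosen after their values were seen.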
